A study of Mus musculus with 28 samples.

Results

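The phase II conjugation enzymes described here are the genes of 3 transferase superfamilies: the UDP-glucuronosyltransferases (Ugt), the glutathione S-transferases (Gst and Mgst) and the sulfotransferases (Sult). They were chosen by name alone, as every gene whose symbol begins with Ugt1, Ugt2, Ugt3, a Gst class letter (a, k, m, o, p, t or z), Mgst or Sult. The rule found 65 of the 31673 genes in the series-wide tables and used no measured value. These 65 members divide into 9 Ugt1a genes, 11 Ugt2 and Ugt3 genes, 4 Gsta, 7 Gstm, 2 Gstp, 4 Gstt and 4 other Gst genes, 3 Mgst genes, 6 Sult1 genes and 15 other Sult genes.

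Phase II enzymes join a water-soluble group to drugs, toxins, bilirubin, steroids and bile acids so that they can be excreted. UGTs of the endoplasmic reticulum transfer glucuronic acid from UDP-glucuronate, GSTs of the cytosol and membranes add glutathione to reactive electrophiles, and SULTs of the cytosol transfer sulfate from PAPS (3'-phosphoadenosine-5'-phosphosulfate). The hepatocyte is the body's main site of these reactions, and several of the enzymes are used as signs of hepatocyte maturation in culture.

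The series asked whether chemical treatment can bring mouse fibroblasts into the endoderm lineage and then to hepatocyte-like cells, and RNA was sequenced in 28 libraries of 9 groups. The chemically induced hepatocyte-like cells (ciHep) were made from induced progenitors of passages 3 to 10 and came from embryonic fibroblasts (MEF_ciHep, 3 libraries) or from neonatal dermal fibroblasts (MNF_ciHep, 2 libraries). Primary hepatocytes of adult liver at passage 0 (pHep, 2 libraries) served as their liver standard. The induced endoderm progenitor cells (ciEPC) came from embryonic fibroblasts (MEF_ciEPC, 10 libraries in 2 numbered series) or neonatal fibroblasts (MNF_ciEPC, 1 library each at passages 2 and 3). Series 1 covers passages 2, 3, 4, 6, 10 and 22, and series 2 covers passages 1, 5, 10 and 22. Endoderm progenitors differentiated from embryonic stem cells of passages 10 to 15 (ESC_EPC, 2 libraries) were set against embryonic stem cells at passage 5 (ESC, 2 libraries). The starting fibroblasts, both at passage 2, were MEF (3 libraries, from mid-gestation embryos) and MNF (2 libraries). All cells carried an Oct4-GFP reporter allele on a CBA/CaJ X C57BL/6J background. For MEF_ciHep, MEF_ciEPC, ESC_EPC, MEF and ESC the carriers had been crossed to 129Sv/Jae females, and for MNF_ciHep, pHep, MNF_ciEPC and MNF no cross is labelled. Background and origin therefore cannot be told apart between the MEF and MNF lines, nor background and cell type between MEF_ciHep and pHep.

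Libraries held 1439670 to 6133147 RSEM expected counts, and the 65 members took between 0.0294% of them in an ESC_EPC library and 0.655% in a MEF_ciHep library. The difference between gene length and effective length in the tables was 49.5 to 50.6 bases in MEF_ciHep, MNF_ciHep, pHep and MEF_ciEPC, 74.3 to 74.5 bases in MNF_ciEPC, MEF, MNF and ESC, and 187 to 196 bases in ESC_EPC, so comparisons across these classes cannot be told apart from a difference in sequencing layout. Some labels need care. The source name of the MNF_ciEPC libraries reads MEF, against their title, description and cell type, and origin was taken from the cell type. Both MNF_ciHep libraries lacked nearly all hepatocyte marker RNA: the summed level of 9 markers was 46.9 and 158 TPM (transcripts-per-million), with Cps1, Cyp3a11 and Cyp2e1 at 0, against 11660 to 25350 TPM in MEF_ciHep and 28070 and 15490 TPM in pHep. Their sum of 7 fibroblast markers was 3678 and 1520 TPM, against 6.95 and 193 TPM in pHep, so they are called here by their label and not as hepatocytes. The library labelled MEF_ciEPC series 2 passage 22 had 13160 TPM of 5 pluripotency markers, where the ESC libraries had 8626 and 8401 TPM and the other 9 MEF_ciEPC libraries at most 56.7 TPM. Nothing in the labels says that libraries of a group came from separate cultures or animals, so p-values measure the spread between these samples, which may be technical. In such bulk RNA, fewer cells of a type and less RNA per cell cannot be told apart.

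Phase II RNA was most abundant in MEF_ciHep and pHep, and the enzymes behind it differed between them. The members summed to 8712 ± 2754 TPM in MEF_ciHep (SD, n = 3), 3407 ± 603 TPM in MNF_ciHep (n = 2) and 6878 ± 4093 TPM in pHep (n = 2). The progenitors had 1187 ± 74.8 TPM in MEF_ciEPC (n = 2 series), 1410 ± 169 TPM in MNF_ciEPC (n = 2) and 661 ± 50.4 TPM in ESC_EPC (n = 2). The fibroblasts and stem cells had 1261 ± 158 TPM in MEF (n = 3), 2016 ± 75.9 TPM in MNF (n = 2) and 1909 ± 26.3 TPM in ESC (n = 2). GST RNA made up most of the sum in every group, while UGT RNA averaged 524 ± 53.5 TPM in MEF_ciHep, 151 ± 43.9 TPM in MNF_ciHep, 411 ± 398 TPM in pHep, 20.2 TPM in MEF_ciEPC, 7.14 TPM in MEF and 182 TPM in MNF. The UGT sums of the pHep libraries lay far apart, at 129.7 TPM in replicate 1 and 692.7 TPM in replicate 2. SULT RNA averaged 103 ± 55.2 TPM in MEF_ciHep (SD, n = 3), 37.6 ± 14.8 TPM in MNF_ciHep (n = 2) and 949 ± 836 TPM in pHep (n = 2), where the libraries had 358 TPM in replicate 1 and 1540 TPM in replicate 2.

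The 3 most abundant members supplied 66.5% of the module in MEF_ciHep. They were Gsto1, an omega-class enzyme that reduces dehydroascorbate, Gsta1, an alpha-class enzyme, and Gsta4, which conjugates the lipid peroxidation product hydroxynonenal. In pHep the 3 with the highest group means supplied 64.1%, namely Gstp1 of the pi class, Mgst1 of the endoplasmic reticulum and outer mitochondrial membrane, and the phenol sulfotransferase Sult1a1. Sult1a1 was among them through pHep replicate 2 (1285 TPM), and in pHep replicate 1 (119 TPM) Gsto1 stood in its place, with 289 TPM. In MNF_ciHep Gstp1, Gstm1 and Mgst1 supplied 59.97%. By group mean, 32 members had their highest level in pHep, 14 in MEF_ciHep, 7 in MNF_ciHep, 4 in ESC, 3 in MNF, 2 in MNF_ciEPC and 1 in ESC_EPC, and 2 members had no count in any library. Of the 65 members 24 were under 10 TPM in every library, and some had only a few counts. Ugt2b37, for example, had 1.12 counts, all in pHep replicate 2. The same tally over all genes is not given here, so these numbers are not read as a pattern of the module. At 10 TPM or more were 28 members in MEF_ciHep, 26 in MNF_ciHep, 31 in pHep, 17 in MEF_ciEPC, 14 in MNF_ciEPC, 10 in ESC_EPC, 9 in MEF, 15 in MNF and 13 in ESC.

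**Figure D1:**
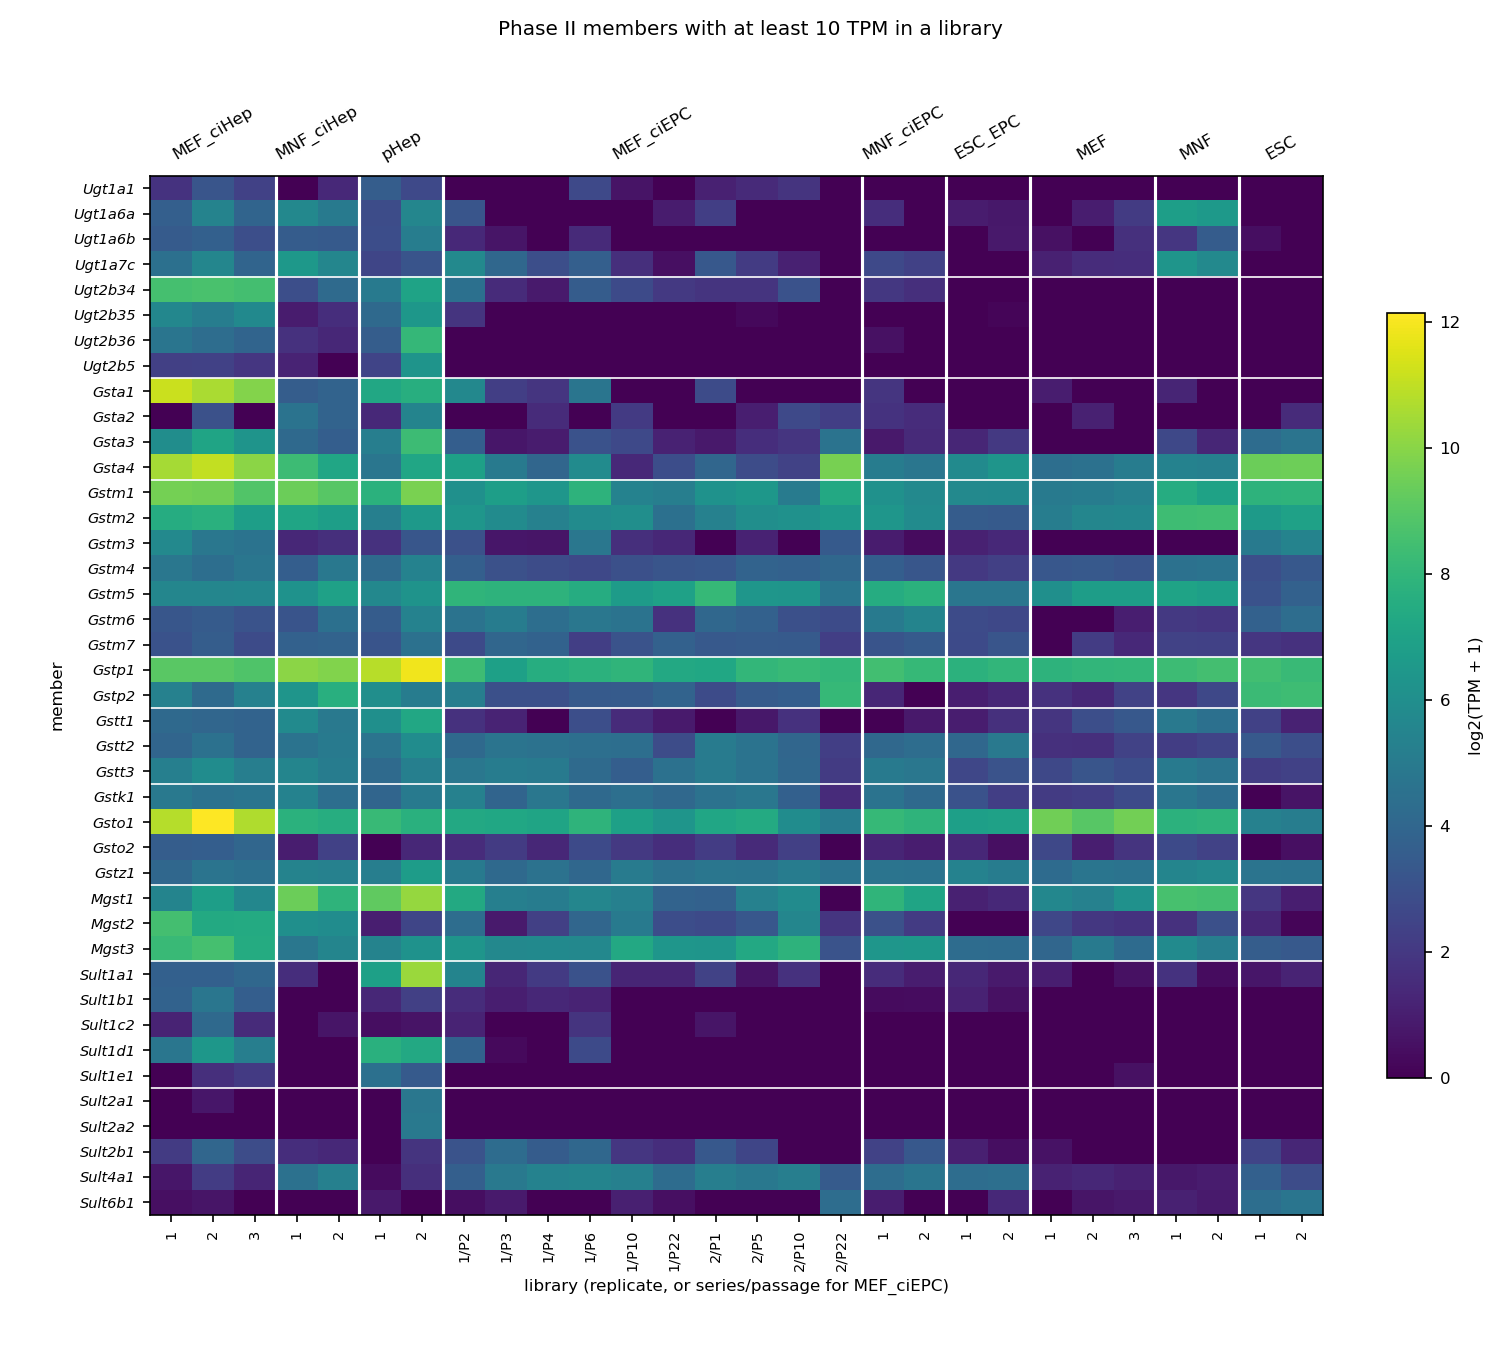
Log2(TPM + 1) of the members that reached 10 TPM in any library (down the page, by family) in the 28 libraries (across, by group, with MEF_ciHep at the left and ESC at the right). Ugt2b and Sult1 members have colour mainly in the MEF_ciHep and pHep libraries, and Gstp1 is high in all groups.

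**Figure D2:**
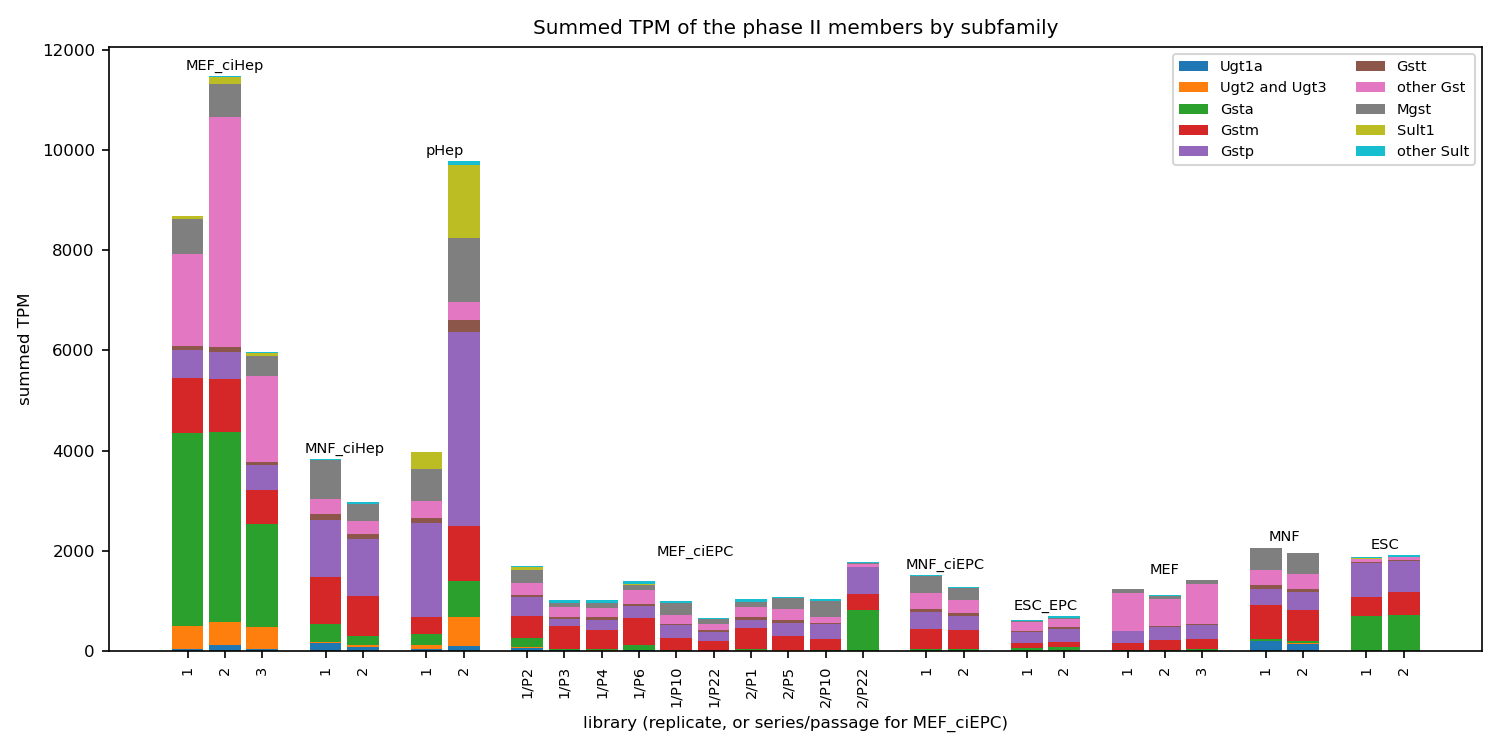
Summed TPM of the members in each of the 28 libraries, stacked by subfamily. The Gsta and omega (other Gst) segments are the tallest parts of the 3 MEF_ciHep bars, and the Gstp, Mgst and Sult1 segments those of pHep replicate 2.

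The promoters of 5 members are shown because pairs of near-copies among them differed in level and because a short motif recurs in them. Gsta1, Gstp1 and Mgst2 were called in the comparison of MEF_ciHep with pHep, and Gsta2 and Gstp2, the near-copies of the first pair, were not. They are the 250 bases before the RefSeq start (GRCm38.p6), written 5' to 3' on the gene's strand. Each start lies within the bounds GENCODE M21 gives for the gene, so the end of the Gsta1 and Gstp1 windows can be transcribed. For Gsta2, Gstp2 and Mgst2 the whole window lies within those bounds and can be transcribed. Gsta1 (chr9:78230419-78230668, plus strand) and Gsta2 (chr9:78347146-78347395, minus strand) were 71.4% identical in alignment, and capitals mark their longest shared run of 29 bases. Gstp1 (chr19:4037913-4038162, minus strand) and Gstp2 (chr19:4042222-4042471, minus strand) were 78.5% identical, and in them and in Mgst2 (chr3:51660929-51661178, plus strand) capitals mark TGANTCA, the AP-1 site.
Gsta1: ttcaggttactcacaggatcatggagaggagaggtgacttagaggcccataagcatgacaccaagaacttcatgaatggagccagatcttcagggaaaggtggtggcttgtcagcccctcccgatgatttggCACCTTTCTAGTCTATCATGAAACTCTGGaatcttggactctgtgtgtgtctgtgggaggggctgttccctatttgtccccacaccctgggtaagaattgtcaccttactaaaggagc
Gsta2: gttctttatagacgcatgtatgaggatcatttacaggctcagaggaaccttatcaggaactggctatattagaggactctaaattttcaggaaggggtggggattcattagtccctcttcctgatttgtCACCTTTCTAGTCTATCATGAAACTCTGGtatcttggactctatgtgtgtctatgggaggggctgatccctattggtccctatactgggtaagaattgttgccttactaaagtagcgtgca
Gstp1: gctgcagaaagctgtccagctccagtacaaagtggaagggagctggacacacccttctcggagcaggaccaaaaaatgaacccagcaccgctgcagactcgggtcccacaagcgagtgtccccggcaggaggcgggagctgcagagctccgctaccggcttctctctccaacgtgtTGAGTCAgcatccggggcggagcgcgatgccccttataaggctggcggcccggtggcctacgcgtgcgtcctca
Gstp2: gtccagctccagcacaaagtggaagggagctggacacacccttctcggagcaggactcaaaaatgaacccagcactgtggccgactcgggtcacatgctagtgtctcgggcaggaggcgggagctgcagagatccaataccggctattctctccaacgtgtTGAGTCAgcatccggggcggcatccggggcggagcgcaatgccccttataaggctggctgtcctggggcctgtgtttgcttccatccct
Mgst2: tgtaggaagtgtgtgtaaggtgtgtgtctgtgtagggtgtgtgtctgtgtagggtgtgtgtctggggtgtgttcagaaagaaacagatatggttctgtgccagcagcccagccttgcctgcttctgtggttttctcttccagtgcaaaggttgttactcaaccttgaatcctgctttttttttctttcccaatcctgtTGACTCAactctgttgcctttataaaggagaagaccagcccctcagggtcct
The capitals begin 74 bases before the start in Gstp1, 89 bases before it in Gstp2 and 52 in Mgst2.

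RefSeq promoters, 69 in all, were found for 57 of the 65 members, and 3 motifs are given for the 250 bases on both strands. Member shares count a member once if any of its promoters matched, while the shares of all are per promoter, so the units differ. TGANTCA, which was searched after the promoters had been read, was present for 11 members (19.3% of the 57). It was in 11 of their 69 promoters, against 6.7% of all 32851 promoters. The antioxidant response element core TGACNNNGC was present for 4 members (7.0%) and in 4 of the 69 promoters, against 10.2% of all promoters. The xenobiotic response element core GCGTG was present for 10 members (17.5%) and in 11 of the 69 promoters, against 28.2% of all. A match is a string of letters and not a bound site, and near-copies among the members share their promoters' descent.

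Compared with primary hepatocytes, MEF_ciHep had more RNA of Gsta1, Gsta4, Gsto1 and Mgst2, and less of Gstp1, Mgst1 and Sult1a1. A gene was called where edgeR's quasi-likelihood test gave a Benjamini-Hochberg adjusted p under 0.05 over all 16062 genes tested and the change was at least 2-fold. Of the 44 members that passed the low-count filter, 9 were higher and 14 lower in MEF_ciHep, where 15.1% of all genes tested were called higher and 10.8% lower. DESeq2 called 8 lower, the replicate block gave 9 lower, and with MEF_ciEPC libraries as separate samples 5 were higher and 8 lower. The median log2 change was −0.43 over the tested members and 0.01 over all genes. The other 21 members had too few counts to be tested in any comparison and are 13 Sult genes, among them Sult2a1 to Sult2a8, 7 Ugt genes and Gstt4.

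Gsto1 (ENSMUSG00000025068, chr19:47854970-47864790) had 1779, 4531 and 1648 TPM in MEF_ciHep, against 289 and 207 TPM in pHep. All MEF_ciHep libraries lay above both pHep libraries, and the fitted change was 3.28 ± 0.39 on the log2 scale (adjusted p = 1.34e-05), a 9.73-fold difference. Without MEF_ciHep replicate 2 it was 2.69. MEF themselves had 733, 510 and 765 TPM of Gsto1, so this enzyme was also abundant in the starting fibroblasts. Its neighbour Gsto2 was low, with 11.1, 11.6 and 15.1 TPM in MEF_ciHep, against 0 and 1.58 TPM in pHep, where only 2 counts were found. The ratio of their counts was 18.1, with an exact 95% counting interval of 4.86 to 152, which covers counting error only.

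Gsta4 (ENSMUSG00000032348, chr9:78182774-78209349) had 1465, 2102 and 1038 TPM in MEF_ciHep, against 26.4 and 145 TPM in pHep, which is a log2 change of 4.20 ± 0.68 (adjusted p = 0.000208), or 3.49 without pHep replicate 1 and 5.59 without pHep replicate 2. Gsta1 (ENSMUSG00000074183, chr9:78230656-78242684) had 2321, 1545 and 943 TPM in MEF_ciHep, against 157 and 195 TPM in pHep, a log2 change of 3.12 ± 0.56 (adjusted p = 0.000723). Both genes lie in the Gsta cluster of chromosome 9, and in both every MEF_ciHep library was above both pHep libraries. Of the 50-base words in Gsta1 transcripts, 90.5% also occur in other genes, chiefly Gm3776, which was not used here, so the Gsta1 estimate depends on how RSEM divided shared reads. Gsta4 shares no such word. Gsta2, whose promoter shares the capital run with Gsta1, had 0, 7.17 and 0 TPM in MEF_ciHep, against 1.62 and 44.0 TPM in pHep, and was not called (log2 change −3.04 ± 1.23, adjusted p = 0.0698). Gsta3 on chromosome 1 had 61.2, 136 and 77.8 TPM in MEF_ciHep, against 35.7 and 321 TPM in pHep, and the groups overlapped.

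The membrane-bound GSTs moved in opposite directions. Mgst2 (ENSMUSG00000074604, chr3:51660360-51682677), which can form leukotriene C4, had 367, 164 and 170 TPM in MEF_ciHep, against 1.05 and 4.73 TPM in pHep. Its fitted change of 6.25 ± 0.63 (log2, adjusted p = 4.23e-06), 76-fold, was the largest rise among the called members, and was 5.55 without pHep replicate 1 and 7.30 without pHep replicate 2. The size rests on 4 counts over the pHep libraries, against 694 in MEF_ciHep, so the fold is uncertain. Mgst3, which has glutathione peroxidase activity, had 299.8, 381 and 179 TPM in MEF_ciHep, against 42.0 and 73.0 TPM in pHep, and rose 4.85-fold (adjusted p = 0.000159). Mgst1 (ENSMUSG00000008540, chr6:138140316-138156755), the abundant microsomal GST of liver, had 43.8, 113 and 48.2 TPM in MEF_ciHep, against 581 and 1195 TPM in pHep. It fell by 3.57 ± 0.47 on the log2 scale (adjusted p = 3.3e-05), and the 2 groups did not overlap.

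Gstp1 (ENSMUSG00000060803, chr19:4035407-4037985) had 526, 518 and 452 TPM in MEF_ciHep, against 1805 and 3832 TPM in pHep, and fell by 2.53 ± 0.20 on the log2 scale (adjusted p = 3.47e-07). Its near-copy Gstp2 had 39.0, 17.4 and 39.0 TPM in MEF_ciHep, against 62.7 and 33.4 TPM in pHep, with overlapping groups and no call (adjusted p = 0.353). Of the 50-base words of Gstp1, 33.7% occur in other genes, and of Gstp2 54.3%, so the division of reads between them is uncertain. Among theta- and zeta-class enzymes, Gstt1, which acts on small halogenated compounds, had 17.0, 15.0 and 13.6 TPM in MEF_ciHep, against 65.3 and 153 TPM in pHep (log2 change −2.87, adjusted p = 0.000185). Gstz1, the maleylacetoacetate isomerase of tyrosine breakdown, fell by 1.73 ± 0.28 (adjusted p = 0.000199). In the mu class Gstm3 rose 6.28-fold (log2 change 2.65, or 3.45 without pHep replicate 2) and Gstm2 2.60-fold, Gstm6 fell 2.82-fold, and Gstm1, with 768, 737 and 462 TPM in MEF_ciHep and 213 and 823 TPM in pHep, was not called.

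Among the UGTs, Ugt2b34 (ENSMUSG00000029260, chr5:86889767-86906937) had 382, 406 and 365 TPM in MEF_ciHep, against 30.6 and 130 TPM in pHep, and rose 4.82-fold (log2 change 2.27 ± 0.50, adjusted p = 0.005). Its log2 change was 1.65 without pHep replicate 1 and 3.39 without pHep replicate 2. Ugt2b35 had 47.7, 34.3 and 52.7 TPM in MEF_ciHep, between the 16.6 and 84.8 TPM of the pHep libraries, and was not called (adjusted p = 0.859). Ugt3a2, of a UGT family that uses sugar donors other than UDP-glucuronate, had no count in MEF_ciHep, against 9.34 and 5.94 TPM in pHep, and was at least 38.2-fold lower when 3 counts over the group are taken as the floor. Ugt2b36 had 25.7, 19.5 and 13.9 TPM in MEF_ciHep, against 10.9 and 269.6 TPM in pHep, so the groups overlapped. It was called lower (log2 change −2.57 ± 0.82, adjusted p = 0.0343), but without pHep replicate 2 the change was 0.42 (adjusted p = 0.703). Ugt2b5 was likewise called lower (−3.44 ± 0.98, adjusted p = 0.0249), and without pHep replicate 2 its change was −0.62 (adjusted p = 0.702). Ugt1a1, the bilirubin enzyme, was low in both, with 2.42, 8.18 and 4.09 TPM in MEF_ciHep and 11 and 5.40 TPM in pHep.

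Among members with more than 3 counts in both groups, a sulfotransferase gave the largest fall in MEF_ciHep relative to pHep. Sult1a1 (ENSMUSG00000030711, chr7:126672865-126676432) had 12.3, 12.2 and 15.7 TPM in MEF_ciHep, against 119 and 1285 TPM in pHep, and fell by 5.75 ± 0.70 on the log2 scale (adjusted p = 1.53e-05), which is 53.8-fold. The size rests on pHep replicate 2: the change was −3.48 without it (adjusted p = 0.00073) and −6.57 without pHep replicate 1. Both pHep libraries were above all MEF_ciHep libraries. Sult1d1, which sulfates catecholamines, had 26.1, 83.8 and 35.2 TPM in MEF_ciHep, against 211 and 161 TPM in pHep (log2 change −2.14 ± 0.66, adjusted p = 0.0334). That call was lost without MEF_ciHep replicate 1 (adjusted p = 0.0888), MEF_ciHep replicate 3 (0.0929), pHep replicate 1 (0.186) or pHep replicate 2 (0.0511), and DESeq2 did not call it (adjusted p = 0.821). The estrogen sulfotransferase Sult1e1 had 0, 2.12 and 3.22 TPM in MEF_ciHep, against 21.1 and 9.74 TPM in pHep (log2 change −3.18, adjusted p = 0.0239, and 0.0607 without MEF_ciHep replicate 2 or 0.217, with a change of −2.27, without pHep replicate 1). Sult1b1 went the other way, with 13.0, 26.3 and 11.5 TPM in MEF_ciHep, against 1.59 and 4.01 TPM in pHep, and was not called (adjusted p = 0.0959). Sult2b1, with a mean of 8.22 TPM in MEF_ciHep and 1.27 TPM in pHep (adjusted p = 0.0558), and the untested Sult1c2, with 6.55 TPM in MEF_ciHep and 0.45 TPM in pHep, also had their higher values in MEF_ciHep. Of the Sult2a genes, which sulfate bile acids and steroids, Sult2a1 and Sult2a2 had 27.6 and 28.6 TPM in pHep replicate 2 and 0 TPM in pHep replicate 1, and at most 0.65 TPM in MEF_ciHep.

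**Figure D3:**
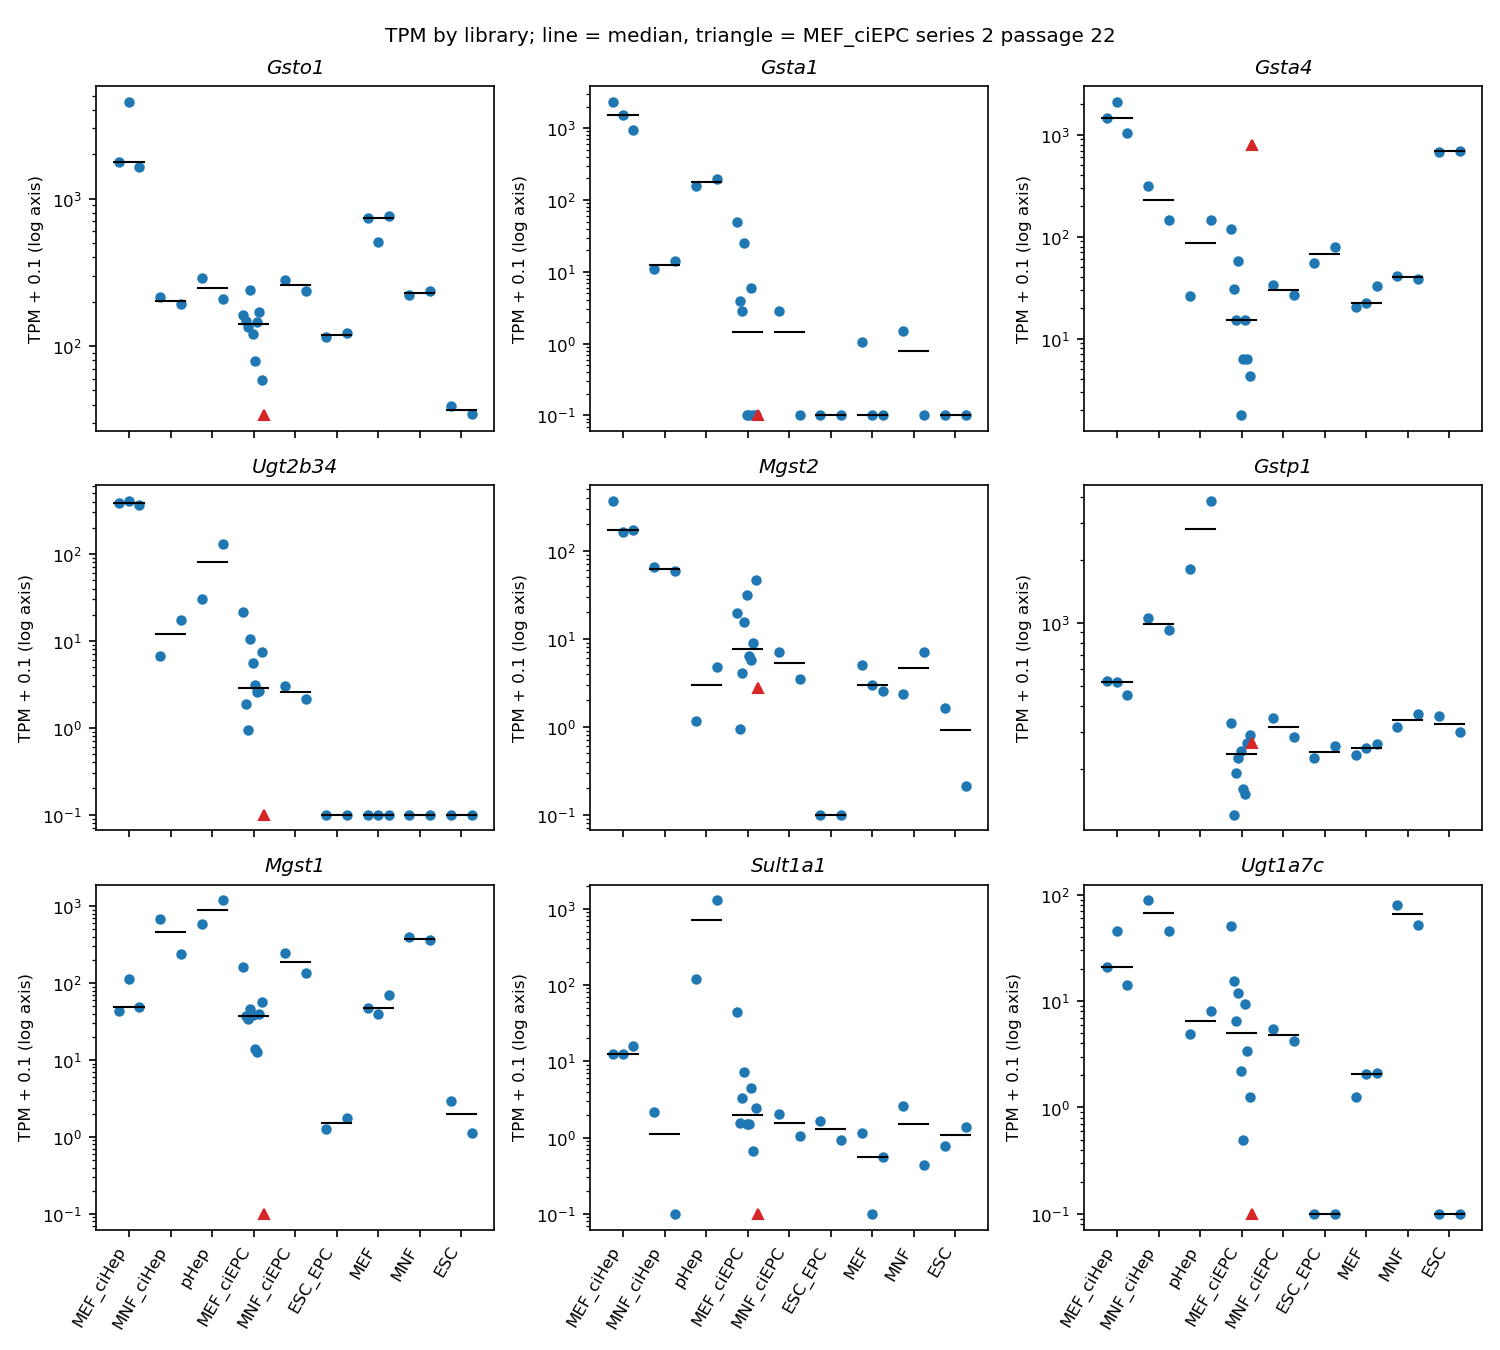
TPM + 0.1 on a log axis for 9 members in each library, grouped as in the plot of all members, with a line at each group's median and a red triangle for the library labelled MEF_ciEPC series 2 passage 22. Gsto1, Gsta1, Gsta4, Ugt2b34 and Mgst2 are highest in MEF_ciHep, and by median Gstp1, Mgst1 and Sult1a1 are highest in pHep.

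The pHep libraries themselves differed in these enzymes. Of 32 members at 10 TPM or more in either library, 27 were higher in replicate 2, 24 of them at least 2-fold, and 5 were higher in replicate 1. The median ratio of replicate 2 over replicate 1 was 2.48 for these members and 1.2 over the 9630 genes at that level, of which 15.5% were at least 2-fold higher in replicate 2. The ratio was 27.2 for Gsta2, 24.7 for Ugt2b36, 10.8 for Sult1a1 and 9 for Gsta3. Of the 9 hepatocyte markers, 7 went the other way, among them albumin with 11138 TPM in replicate 2 and 14800 TPM in replicate 1, while Fgb and Cps1 were higher in replicate 2. All 7 fibroblast markers were higher in replicate 2, with the sums given above. Of 5 markers of macrophages and other blood cells, 4 were also higher in replicate 2, such as Csf1r with 9.48 TPM in replicate 2 and 0.68 TPM in replicate 1. Their sum was 85.1 TPM in replicate 2 and 106 TPM in replicate 1, carried by Cd68 at 62.3 TPM in replicate 2 and 104.6 TPM in replicate 1. Liver endothelial markers summed to 15.2 TPM in replicate 2 and 16.5 TPM in replicate 1, and bile duct markers, of which 3 of 4 were higher in replicate 1, to 1109 TPM in replicate 2 and 2256 TPM in replicate 1. The part of these lists in the results was not tested.

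The genes that supply the cofactors were measured beside the transferases, on lists chosen by function. Ugdh, which makes UDP-glucuronate, had 275, 373 and 284 TPM in MEF_ciHep, against 139 and 221 TPM in pHep, and missed the 2-fold minimum (log2 change 0.69 ± 0.17, adjusted p = 0.00497). None of the 4 genes listed for UDP-glucuronate was called. Gclc, the catalytic subunit of the first step of glutathione synthesis, had 243, 235 and 172 TPM in MEF_ciHep, against 289 and 470.5 TPM in pHep, also under 2-fold, and of 8 glutathione genes 1 was higher and 3 were lower. Papss2, which makes PAPS, had 46.5, 33.3 and 21.4 TPM in MEF_ciHep, against 32.8 and 41.6 TPM in pHep (adjusted p = 0.715), and of 8 PAPS genes 2 were higher and 0 lower. Of 7 tested genes of other conjugations (acetylation, methylation, amino acid conjugation and the like) 0 were higher and 4 lower.

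Of 12 tested regulators of phase II genes, 0 were higher and 5 lower in MEF_ciHep than in pHep. Ahr, the receptor for dioxins and other aromatic compounds, had 2.48, 5.57 and 6.04 TPM in MEF_ciHep, against 33.1 and 47.3 TPM in pHep (log2 change −3.05 ± 0.30, adjusted p = 2.1e-06). Hnf4a, a hepatocyte transcription factor, had 98.0, 130.3 and 70.1 TPM in MEF_ciHep, against 282 and 243 TPM in pHep (−1.76 ± 0.38, adjusted p = 0.00334). Nr1i2, the pregnane X receptor, was called lower (adjusted p = 0.0462), and Nr1i3, the constitutive androstane receptor, was at or below 3.15 TPM in all libraries of both groups and was not tested.

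**Figure D4:**
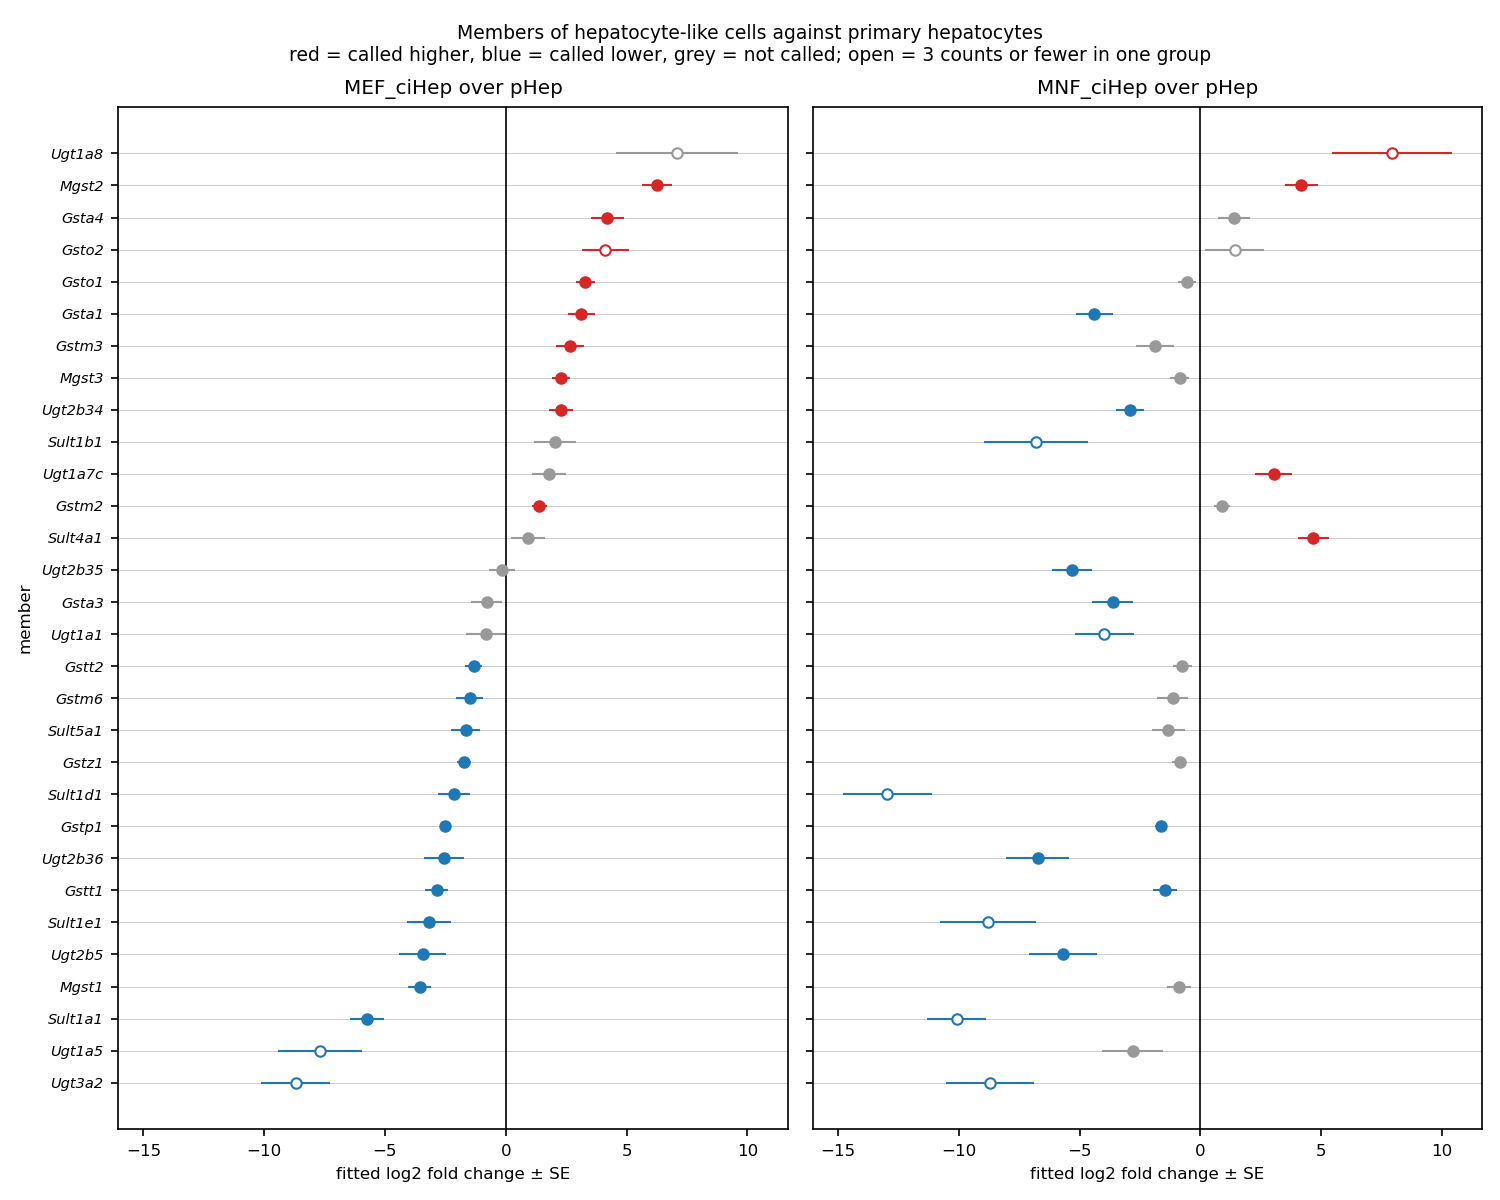
Fitted log2 change ± SE of members called in either comparison, for MEF_ciHep over pHep and MNF_ciHep over pHep. Red points were called higher, blue points lower, grey points were not called, and open points had 3 counts or fewer in one group, so their fitted value depends on the prior count. Mgst2 is red and Sult1a1 blue in both panels.

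MEF_ciHep had more RNA of members of all 3 classes than MEF_ciEPC. Of the 44 tested members 25 were higher and 2 lower in MEF_ciHep, where 17.8% of all genes were higher and 14.8% lower, with a median log2 change of 2.40 over the tested members and −0.07 over all genes. The rises covered 8 of the UGTs, 14 GST genes and the sulfotransferases Sult1b1, Sult1d1 and Sult1e1. Without the library labelled MEF_ciEPC series 2 passage 22, 26 members were higher and 2 lower.

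Gsta1 showed the largest rise with counts in both groups, at 2321, 1545 and 943 TPM in MEF_ciHep, against a lowest, median and highest of 0, 1.35 and 49.5 TPM in the 10 MEF_ciEPC libraries (log2 change 8.16 ± 0.74, adjusted p = 2.05e-06). That change was 9.41 without series 1 passage 2, 10.64 without series 1 and 7.43 without series 2. Ugt2b34 had 0, 2.80 and 21.4 TPM as lowest, median and highest in MEF_ciEPC and rose 95.1-fold in MEF_ciHep (adjusted p = 1.41e-05). Ugt2b36 was at 0 in all MEF_ciEPC libraries and was at least 160-fold higher in MEF_ciHep. The MEF_ciHep values of these members stood above every MEF_ciEPC library. Sult1b1, a sulfotransferase of thyroid hormones and small phenols, had 13.0, 26.3 and 11.5 TPM in MEF_ciHep, against 0, 0 and 1.93 TPM as lowest, median and highest in MEF_ciEPC, and rose 29.6-fold (adjusted p = 0.00164). Its log2 change of 4.89 was 4.09 without series 2 and 8.61 without series 1, where no count was left in MEF_ciEPC and the fitted value depends on the prior count.

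Gsto1 had 33.7, 140 and 239 TPM as lowest, median and highest in MEF_ciEPC, and rose by 4.71 ± 0.42 on the log2 scale in MEF_ciHep (adjusted p = 8.88e-07), and by 4.12 without MEF_ciHep replicate 2. Gsta4 had 1.66, 15.2 and 793 TPM there, the last in the series 2 passage 22 library, and rose by 4.09 ± 0.66 (adjusted p = 0.000139), and by 6.32 ± 0.67 without that library. Mgst2 (0.83, 7.52 and 46.8 TPM in MEF_ciEPC) rose 19.7-fold, and Gstm1 (32.6, 77.1 and 232 TPM) rose 9.19-fold. Mgst1 had 0, 37.7 and 163 TPM in MEF_ciEPC, overlapping the MEF_ciHep values of 43.8 to 113 TPM, and was not called.

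The 2 members that fell were Gstm5 and Sult4a1. Sult4a1 (chr15:84076097-84105754), known mainly from brain and with no settled substrate, had 0.69, 3.52 and 1.37 TPM in MEF_ciHep, against 10.3, 32.3 and 44.1 TPM as lowest, median and highest in MEF_ciEPC (log2 change −3.48 ± 0.46, adjusted p = 2.19e-05, and −4.43 without MEF_ciHep replicate 2). Gstm5 had 47.2, 47.3 and 47.7 TPM in MEF_ciHep, against 25.5, 153 and 278 TPM as lowest, median and highest in MEF_ciEPC (−1.44 ± 0.26, adjusted p = 0.000378). Among the cofactor genes 3 of 4 for UDP-glucuronate, 4 of 8 for glutathione and 2 of 8 for PAPS were higher in MEF_ciHep, 2 glutathione genes were lower, and of 12 regulators 6 were higher and 0 lower. Papss2 rose by 3.95 ± 0.46 (adjusted p = 8.02e-06) and Gclc by 2.48 ± 0.19 (adjusted p = 2.53e-07).

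Set directly against the starting MEF, MEF_ciHep had 34 of the 44 tested members higher and 0 lower, where 22.8% of all genes were higher and 19.3% lower. In either direction 36 members had an unadjusted p under 0.05 in edgeR, for which the share of all genes is not given here, and DESeq2 also called 0 lower. Ugt2b34 had 7015 counts in MEF_ciHep, against 0 in the 3 MEF libraries, which makes it at least 2430-fold higher. Gsta1 had 7636 counts in MEF_ciHep, against 1 in MEF, a ratio of 7950 with a counting interval of 1430 to 314000. Gstp1 had the smallest called rise, 2.15-fold, with 526, 518 and 452 TPM in MEF_ciHep, against 233, 251 and 262 TPM in MEF.

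The MNF_ciHep libraries had a different set of enzymes from MEF_ciHep. Sulfotransferases other than Sult4a1 were at or below 4.62 TPM, Ugt1a6a and Ugt1a7c were among the leading UGTs, and Gstp1, Gstm1 and Mgst1 led the GSTs. Against MNF_ciEPC, 17 members were higher and 1 lower, where 19.5% of all genes were higher and 10.8% lower. The count of higher members was 10 without MNF_ciEPC replicate 2 and 11 without MNF_ciHep replicate 1. The lone fall, Mgst3, did not hold under RLE scaling (adjusted p = 0.0528), in DESeq2 (0.0509) or without MNF_ciEPC replicate 1 (0.0892), MNF_ciEPC replicate 2 (0.0899) or MNF_ciHep replicate 1 (0.248).

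Gstm1 had 683 and 506 TPM in MNF_ciHep, against 70.6 and 52.2 TPM in MNF_ciEPC, and rose 10.4-fold (adjusted p = 4.02e-05). Gstp2 had 80.6 and 203 TPM in MNF_ciHep, against 1.46 and 0 TPM in MNF_ciEPC, a count ratio of 185 with a counting interval of 62.4 to 902. Gstp1 had 1052 and 926 TPM in MNF_ciHep, against 351 and 282 TPM in MNF_ciEPC, and rose 3.62-fold (adjusted p = 1.81e-05). In each of these genes the 2 groups were apart.

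Ugt1a6a, an enzyme for simple phenols, had 49.6 and 29.7 TPM in MNF_ciHep, 2.02 and 0 TPM in MNF_ciEPC, and 112 and 90.6 TPM in the starting MNF. Ugt1a7c had 88.8 and 46.1 TPM in MNF_ciHep, 5.35 and 4.12 TPM in MNF_ciEPC, and 79.3 and 51.6 TPM in MNF. In both, the MNF_ciEPC libraries were the lowest of the 3 groups, and the rises from MNF_ciEPC were called (adjusted p = 0.00133 for Ugt1a6a and 0.000745 for Ugt1a7c). The sum of 7 fibroblast markers was also lowest in MNF_ciEPC, with 3678 and 1520 TPM in MNF_ciHep, 38.8 and 13.7 TPM in MNF_ciEPC, and 26680 and 28040 TPM in MNF. Squamous epidermis markers summed to 107 and 111 TPM in MNF_ciHep, 8.15 and 1.66 TPM in MNF_ciEPC, and 4.51 and 2.57 TPM in MNF. The part of both lists in these values was not tested. All Ugt1a transcripts end in the same exons, and 52.1% to 80.2% of the 50-base words of each occur in other genes, so levels of single Ugt1a members are uncertain.

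Against the starting MNF, MNF_ciHep had 17 members higher and 1 lower (Gstm2), where 16.2% of all genes were higher and 11.6% lower. That count was 7 without MNF replicate 1, 7 without MNF replicate 2 and 11 without MNF_ciHep replicate 1. Mgst2 had 64.5 and 58.5 TPM in MNF_ciHep, against 2.27 and 6.92 TPM in MNF, and rose 16.2-fold (log2 change 4.02, adjusted p = 0.000128, and 4.72 without MNF replicate 2). Sult4a1 had 22.2 and 38.7 TPM in MNF_ciHep, against 0.73 and 0.87 TPM in MNF, and rose 37.8-fold (adjusted p = 1.65e-05).

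Against the same pHep libraries that MEF_ciHep was compared with, MNF_ciHep had 4 members higher and 14 lower, where 18.4% of all genes were higher and 13.4% lower. The higher members were Mgst2, Sult4a1, Ugt1a7c and Ugt1a8, and without pHep replicate 2 the count was 7. DESeq2 called 9 lower. Sult1d1 had no count in MNF_ciHep and was at least 336-fold lower than in pHep. Sult1a1 had 2 counts in MNF_ciHep against 1837 in pHep, 1060-fold lower with a counting interval of 293 to 8770. Its fitted log2 change was −7.84 without pHep replicate 2. Gsta1 had 10.9 and 13.8 TPM in MNF_ciHep, against 157 and 195 TPM in pHep (log2 change −4.39 ± 0.77, adjusted p = 0.000537). Ahr, at 53.7 and 52.9 TPM in MNF_ciHep and 33.1 and 47.3 TPM in pHep, was not called (adjusted p = 0.395), while Hnf4a was at 1.5 and 5.69 TPM in MNF_ciHep, against 282 and 243 TPM in pHep (adjusted p = 6.23e-06).

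Between the ciHep groups, MEF_ciHep had 14 members higher and 5 lower than MNF_ciHep, where 16.1% of all genes were higher and 17.8% lower. Gsta1 was 182-fold higher (adjusted p = 6.02e-06), Ugt2b34 36.3-fold (log2 change 5.18, adjusted p = 6.24e-05, and 4.59 to 5.89 without either MNF_ciHep replicate), Gsto1 14.3-fold (adjusted p = 3.52e-06) and Mgst3 8.79-fold (adjusted p = 1.22e-05). Lower were Sult4a1, Mgst1, Gstp2, Gstt1 and Gstm5, of which Mgst1 had 43.8, 113 and 48.2 TPM in MEF_ciHep, against 680 and 239 TPM in MNF_ciHep (adjusted p = 0.00025). The call of Gstt1 was lost without MEF_ciHep replicate 2, MEF_ciHep replicate 3 or MNF_ciHep replicate 1 (adjusted p up to 0.307), and that of Gstm5 without MEF_ciHep replicate 1 or MNF_ciHep replicate 2 (up to 0.0899). The call of Gstp2 was lost without MNF_ciHep replicate 2 (adjusted p = 0.159), and the log2 change of Mgst1 was −2.70, or −1.62 without MNF_ciHep replicate 1 and −3.29 without MNF_ciHep replicate 2. The step from progenitor to ciHep differed by origin in a test of the difference itself for 5 members. Relative to the MEF line, the log2 change in the MNF line was −4.90 ± 0.55 for Gsto1, −4.24 ± 0.89 for Ugt2b34 and −2.84 ± 0.51 for Mgst3, and it was 4.08 ± 0.65 for Sult4a1 and 7.70 ± 1.19 for Gstp2. Gstp2 had 3 counts in MNF_ciEPC, so its fitted value depends on the prior count, and it was 5.90 ± 0.96 without the library labelled MEF_ciEPC series 2 passage 22. Without that library Gsta4 was also called, at −3.16 ± 0.80 (adjusted p = 0.00671), and so was Gsta1, at −5.08 ± 1.82 (adjusted p = 0.0452). With it, Gsta1 was at −5.19 ± 1.93 (adjusted p = 0.0527). Of all genes, 17.6% were higher and 12% lower in that test. Sult4a1 fell in the MEF line, and in the MNF line had 22.2 and 38.7 TPM in MNF_ciHep, against 19.5 and 25.4 TPM in MNF_ciEPC.

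Of the members tested, more were higher than lower in progenitors induced from MEF. The mean summed TPM of the module was 1187 ± 74.8 TPM in MEF_ciEPC (SD, n = 2 series) and 1261 ± 158 TPM in MEF (n = 3). Single MEF_ciEPC libraries spread more widely than that SD. The library labelled series 2 passage 22 had 1788 TPM, and the others had 662.1 to 1698 TPM, with a median of 1033 TPM. The MEF libraries had 1113 to 1427 TPM. Of the 44 tested members 19 were higher and 2 lower in MEF_ciEPC, where 17.6% of all genes were higher and 15.8% lower, and 16 and 2 without the library labelled MEF_ciEPC series 2 passage 22. The median log2 change was 1.93 over the tested members and 0.12 over all genes. Gsto1 was lower, with 33.7, 140 and 239 TPM as lowest, median and highest in MEF_ciEPC, against 733, 510 and 765 TPM in MEF (log2 change −2.66 ± 0.38, adjusted p = 3.84e-05). Its MEF_ciEPC libraries all lay under the MEF libraries, and across steps that share those libraries it had its lowest level of the 3 stages in the progenitors. Gstt1 was the other fall (−2.46 ± 0.63, adjusted p = 0.00484).

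Sult4a1 had 10.3, 32.3 and 44.1 TPM as lowest, median and highest in MEF_ciEPC, against 1.25, 1.54 and 1.18 TPM in MEF, and rose 18.1-fold (adjusted p = 4.93e-06). Gstm6 had 2.33, 17.6 and 33.2 TPM in MEF_ciEPC, against 0, 0 and 1 TPM in MEF, a count ratio of 90.1 with a counting interval of 16.0 to 3570. Gstt2 (3.80, 20.2 and 32.3 TPM in MEF_ciEPC, against 2.23, 2.14 and 4.22 TPM in MEF) rose 5.76-fold (adjusted p = 9.26e-05), and Mgst3 (7.67, 80.1 and 226 TPM, against 15.2, 31 and 18.2 TPM) rose 4.05-fold (adjusted p = 0.000163). For Sult4a1 and Gstm6 every MEF_ciEPC library was above every MEF library, while the series 2 passage 22 library was among the MEF values for Gstt2 and below them for Mgst3. Gsta4 was called higher (log2 change 1.94 ± 0.60, adjusted p = 0.0157), and without that library its change was −0.30 (adjusted p = 0.696). The calls of Gsta3 and Gstm1 were also lost without it.

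At this step in the MNF line the share of members called lower was near that of all genes. MNF_ciEPC had 5 of the 44 tested members higher and 9 lower than MNF, which is 11.4% and 20.5%, where 18.4% of all genes were higher and 21.8% lower. Leaving out one replicate at a time gave 6 to 8 lower members, and the median log2 change was 0 for both members and all genes. The rises were Ugt2b34, Sult2b1, Sult4a1, Gstm6 and Gstt2, and Ugt2b34 and Sult2b1, with no count in MNF, were at least 11-fold and 10.9-fold higher. Sult4a1 had 19.5 and 25.4 TPM in MNF_ciEPC, against 0.73 and 0.87 TPM in MNF, and rose 24.9-fold (adjusted p = 1.11e-05). Ugt1a6a, at 2.02 and 0 TPM in MNF_ciEPC, against 112 and 90.6 TPM in MNF, fell by 7.59 ± 1.28 on the log2 scale (adjusted p = 0.000167), and by 6.63 without MNF_ciEPC replicate 2. Gstm2 had 81.0 and 57.7 TPM in MNF_ciEPC, against 336 and 339.9 TPM in MNF, and fell 5.35-fold (adjusted p = 1.53e-05). Gstt1 had 0 and 0.79 TPM in MNF_ciEPC, against 29.1 and 21.3 TPM in MNF, a 73-fold lower count with a counting interval of 19.8 to 610. In MEF, Gstm2 stood at 34.4, 45.9 and 48.1 TPM.

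**Figure D5:**
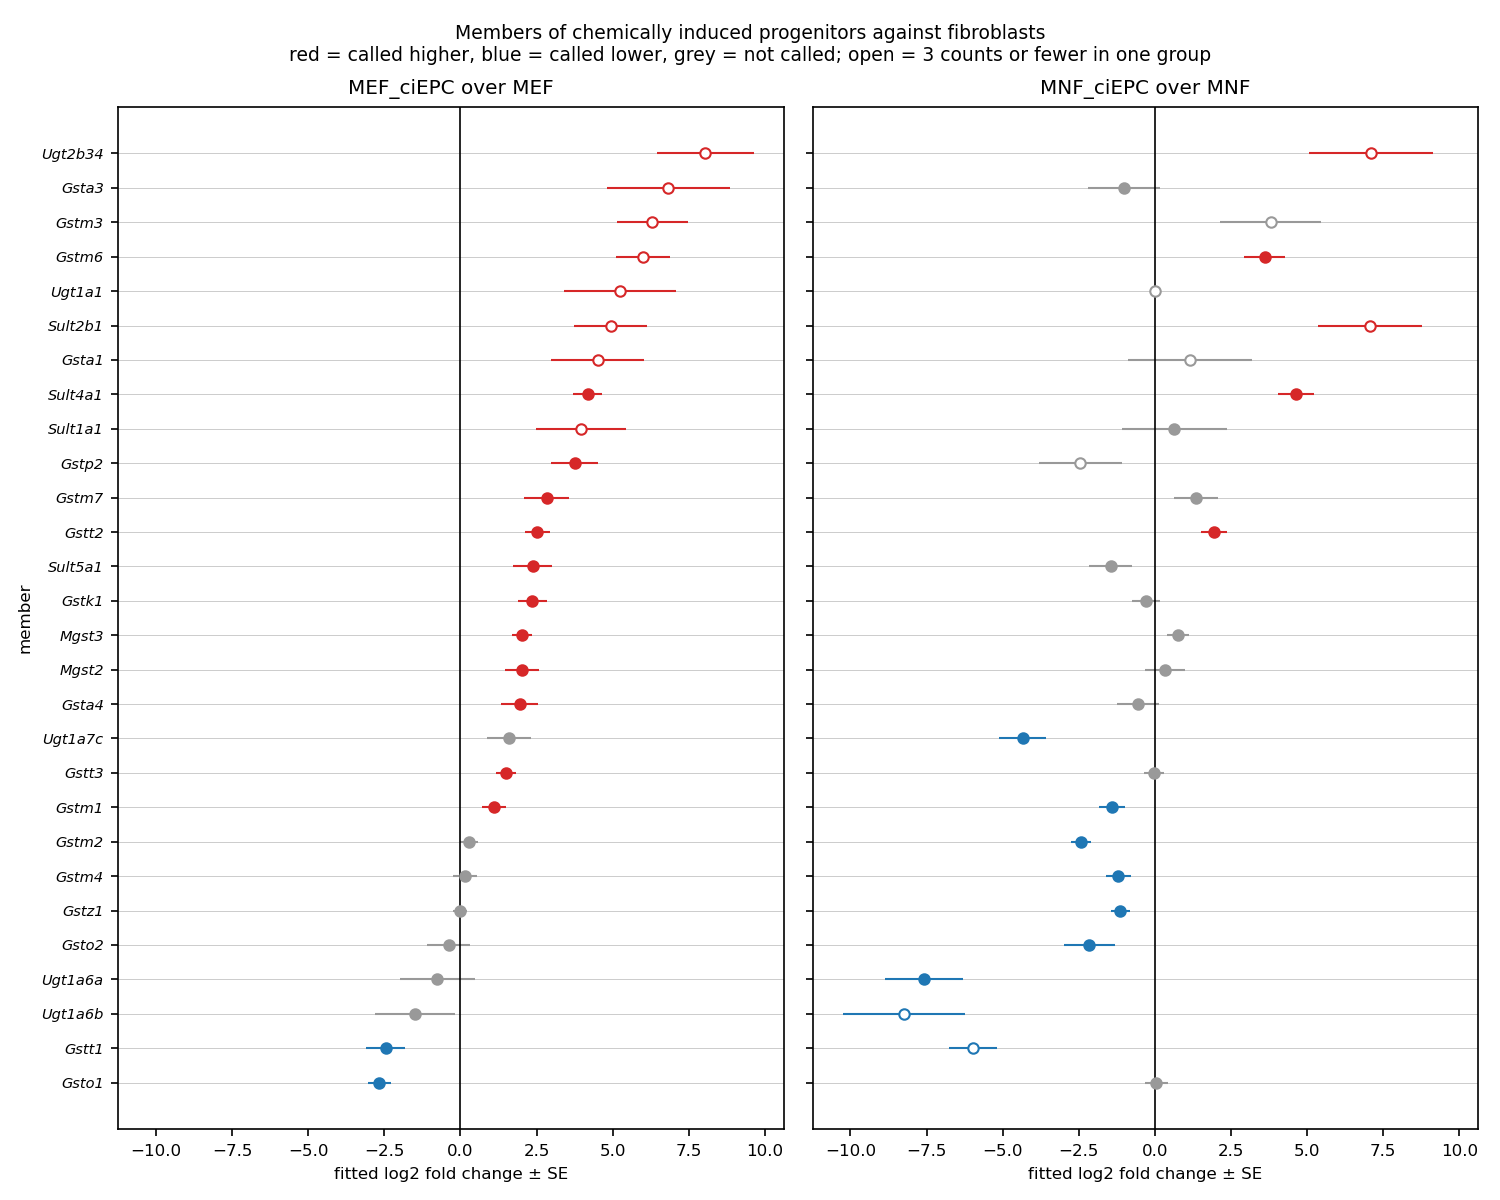
Fitted log2 change ± SE of members called in either comparison, for MEF_ciEPC over MEF and MNF_ciEPC over MNF. Red points were called higher, blue points lower and grey points were not called, and open points had 3 counts or fewer in one group. Sult4a1, Gstm6 and Gstt2 are red in both panels, Gstt1 is blue in both, and Gsto1 is blue in the MEF panel and grey in the MNF panel.

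The 2 lines were compared in a test of the difference between their steps. Of the 44 tested members 1 was higher and 10 were lower in the MNF line relative to the MEF line, where 6.16% of all genes were higher and 8.94% lower. The member that was higher was Gsto1 (log2 difference 2.70 ± 0.52, adjusted p = 0.00345), with 280.2 and 235 TPM in MNF_ciEPC, against 222 and 237 TPM in MNF. Ugt1a7c (−5.94 ± 1.03, adjusted p = 0.00244, and −4.23 without MEF_ciEPC series 1) and Gstm2 (−2.70 ± 0.43, adjusted p = 0.00103) had the smallest adjusted p among the lower members. The count of lower members was 5 without MNF replicate 1, 6 without MNF replicate 2, 6 without MNF_ciEPC replicate 1 and 5 without MNF_ciEPC replicate 2. All MEF_ciEPC libraries differ from MNF_ciEPC in the length class given above, which cannot be told apart from this difference.

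Progenitors made from embryonic stem cells had less RNA of several GSTs than the stem cells. ESC_EPC had 4 of the 44 tested members higher and 9 lower than ESC, which is 9.09% and 20.5%. Of all genes 18.5% were higher and 14.7% lower, and the median log2 change was 0 for both members and all genes. The falls are therefore described for single genes and not for the module. ESC_EPC and ESC also differ in the length class given above, which cannot be told apart from these differences. The count of higher members was 2 without ESC_EPC replicate 2 and 2 without ESC replicate 2, and the count of lower members was 5 without ESC_EPC replicate 1. Gstp2 had 1.04 and 1.59 TPM in ESC_EPC, against 311 and 333 TPM in ESC, a 373-fold lower count with a counting interval of 127 to 1810. Gsta4 had 55.5 and 79.6 TPM in ESC_EPC, against 685 and 700.3 TPM in ESC, and fell by 3.65 ± 0.68 on the log2 scale (adjusted p = 0.000575). Gstm2 had 10.7 and 9.97 TPM in ESC_EPC, against 95.9 and 124 TPM in ESC (adjusted p = 4.01e-06). Gsto1 had 116 and 122 TPM in ESC_EPC, against 39.0 and 34.6 TPM in ESC, and rose 2.76-fold (adjusted p = 0.00917, and 0.0734 without ESC replicate 2).

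Against ESC_EPC, MEF_ciEPC had 13 members higher and 0 lower, where 16.8% of all genes were higher and 14.9% lower. In edgeR 16 of the 44 members had an unadjusted p under 0.05 in this comparison, for which the share of all genes is not given here. Mgst3 had 7.67, 80.1 and 226 TPM as lowest, median and highest in MEF_ciEPC, against 18.8 and 18.2 TPM in ESC_EPC, and was 5.92-fold higher (adjusted p = 0.00012). Gstm5 (25.5, 153 and 278 TPM in MEF_ciEPC, against 26.7 and 26.1 TPM in ESC_EPC) was 5.75-fold higher (adjusted p = 1.71e-05). The series 2 passage 22 library was the one MEF_ciEPC library below ESC_EPC for both. Sult4a1, at 19.5 and 20.4 TPM in ESC_EPC, was not called.

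Across passages of MEF_ciEPC no member passed the test. Of 25 members tested among 12390 genes, 0 rose and 0 fell with passage in edgeR, where 0.00807% of all genes rose and 0.0161% fell. Unadjusted, 7 members had p under 0.05 in edgeR, and DESeq2 called 2 members lower. The shares of all genes at these settings are not given here, so neither count is read as a trend. The slopes closest to a call were those of Gstm5 at −0.51 ± 0.09 and Ugt1a7c at −1.26 ± 0.22 log2 units per doubling of passage (adjusted p = 0.118 for each). Ugt1a7c had 50.9 TPM in series 1 passage 2 and 0.40 TPM in series 1 passage 22, and 9.31 TPM in series 2 passage 1 and 1.16 TPM in series 2 passage 10. The series 1 passage 2 library held 259 TPM of fibroblast markers, where the other 9 libraries held at most 46.8 TPM. Its levels of Ugt1a7c (50.9 TPM), Mgst1 (163 TPM), Sult1a1 (43.7 TPM) and Gsta1 (49.5 TPM) were the highest of the 10 libraries. The MEF libraries had 1.15, 1.95 and 2.02 TPM of Ugt1a7c, and 47.5, 39.85 and 70.2 TPM of Mgst1. They had 1.05, 0 and 0.45 TPM of Sult1a1, and 0.95, 0 and 0 TPM of Gsta1. The part of remaining fibroblasts in these levels was not tested.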

How the data were processed

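RNA of 28 libraries was extracted with Trizol and sequenced from TruSeq libraries, per the labels' protocols. Gene levels were estimated by the authors in RSEM 1.2.4 against mm10, per the submitters' processing notes; the aligner and annotation release are not given in the sources used here. The deposited tables hold expected counts, which are unnormalized estimated counts, and TPM, which the authors scaled to gene length and library. Expected counts were rounded to whole numbers and tested in edgeR 4.0.16 under R 4.3.3, by the quasi-likelihood method with TMM factors, after filterByExpr at min.count 10, in a joint fit of the 9 groups (20 samples). MEF_ciEPC libraries of one numbered series were read from the titles as passages of 1 line and summed, so n = 2 series. Calls need a Benjamini-Hochberg adjusted p under 0.05 over all genes tested and at least 2-fold change. The passage trend used the 10 libraries singly, with no fold minimum. Levels are the deposited TPM. MEF_ciEPC means and SDs are over the series' means.

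Alternatives were RLE scaling, DESeq2 1.42.0, no count filter, limma 3.58.1 on log2(TPM + 1) and log2(TPM + 0.1), omission of the passage 22 library of MEF_ciEPC series 2, MEF_ciEPC libraries as separate samples, a replicate block and leaving out each replicate. Leaving out series 1 passage 2 was added after seeing the data. The members, the gene lists and the tests were chosen with earlier results of these data known. Per-library values are given for members among the 3 most abundant of a group, the 8 largest called changes in either direction at 10 TPM or more, or the most abundant of a subfamily, and other members are named with fewer values. Positions are from GENCODE M21 (GRCm38). The edgeR step was checked on simulated data holding known fold changes. A listed regulator and a searched motif are not reported here.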

Additional observations from a re-analysis of the deposited data

Results flagged for a closer look

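Among the 10 MEF_ciEPC libraries, 9 of the 35 members given by library had a single outlying library. The gap to its nearest neighbour, on log2(TPM + 1), passed Dixon's 95% limit. About 1 in 20 groups of independent, like draws pass that limit. These libraries are passages of 2 series, and the members were chosen by their values in these data and are not independent. That rate is therefore no measure for the 9. The library labelled MEF_ciEPC series 2 passage 22 was the lowest for Gstk1 (1.85 TPM, others 12.2 to 38.9 TPM), Gstm5 (25.5 TPM, others 80.4 to 278 TPM), Gsto2 (0 TPM, others 1.52 to 5.71 TPM), Gstt3 (3.29 TPM, others 11.3 to 33.0 TPM), Mgst1 (0 TPM, others 12.6 to 163 TPM) and Mgst3 (7.67 TPM, others 49.8 to 226 TPM). It was the highest for Gstp2 (277 TPM, others 5.81 to 35.1 TPM) and Sult6b1 (19.6 TPM, others 0 to 1.13 TPM). In ESC, Gstp2 had 311 and 333 TPM, Sult6b1 20.1 and 25.1 TPM, and Mgst1 2.80 and 1.02 TPM. The library labelled series 1 passage 2 was the highest for Ugt2b35 (2.57 TPM, others 0 to 0.21 TPM).

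The step from fibroblast to ciEPC differed by origin, as MNF_ciEPC over MNF minus MEF_ciEPC over MEF on the log2 scale, by −7.84 for Gsta3, −6.83 for Ugt1a6a, −6.19 for Gstp2, −5.94 for Ugt1a7c, −3.82 for Sult5a1, −3.52 for Gstt1, −2.70 for Gstm2, −2.66 for Gstk1, −2.50 for Gstm1, −1.53 for Gstt3 and 2.70 for Gsto1. Gsta3 had no count in MEF, so its fitted value depends on the prior count and is no bound, and the same holds for Gstp2, with 3 counts in MNF_ciEPC. The step from ciEPC to ciHep differed by −4.90 for Gsto1, −4.24 for Ugt2b34, −2.84 for Mgst3, 4.08 for Sult4a1 and 7.70 for Gstp2. Without the library labelled MEF_ciEPC series 2 passage 22, the Gstp2 differences were −4.39 for the ciEPC step and 5.90 for the ciHep step, and the ciEPC step's difference was no longer called for Gsta3 (−6.75, adjusted p = 0.0893). Without series 1 passage 2 it was not called for Ugt1a6a (−4.47, adjusted p = 0.298). Sult5a1 was not followed in the fits that left out a replicate or series. Over these 9 fits the ciEPC step's difference was lost in 8 for Gsta3, 7 for Gstt3, 6 for Gstt1 (adjusted p up to 0.356), and 2 each for Gstk1, Gstp2 and Ugt1a6a (up to 0.48). It was lost in 0 of the 9 for Gstm1, Gstm2, Gsto1 and Ugt1a7c, and the ciHep step's differences were lost in 0 of 9.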

How the results depend on the processing

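Of 129 called changes of the 35 members given by library, 96 held in every fit that left out one replicate and 33 were lost in at least 1. Under RLE scaling 1 of the 129 was lost, in DESeq2 12, without a count filter 1, in limma on log2(TPM + 1) 4 and on log2(TPM + 0.1) 11, without series 2 passage 22 3, without series 1 passage 2 3, under the replicate block 7 and with MEF_ciEPC libraries as separate samples 32. The direction changed for Gsta4 in MEF_ciEPC over MEF (−0.30 without series 2 passage 22) and for Ugt2b36 in MEF_ciHep over pHep (−3.47 to 0.42 over the fits that leave out one replicate, the last without pHep replicate 2). Shared replicate numbers were checked as possible pairs over all tested genes. Of 73 same-numbered pairs, the deviations from group means correlated above 0.1 in 0 and below −0.1 in 1. With 2 or 3 samples a group the deviations within a group depend on each other, so this check cannot exclude pairing. Under the replicate block 9 members were lower in MEF_ciHep over pHep. DESeq2 gave 8 there and 9 in MNF_ciHep over pHep, 0 lower in MNF_ciHep over MNF_ciEPC, 5 lower in the difference between origins in the ciHep step, and 2 lower in the passage trend. RLE scaling, and leaving out series 2 passage 22, each gave 0 lower in MNF_ciHep over MNF_ciEPC. Leaving out series 2 passage 22 or series 1 passage 2 gave 5 lower in the ciHep step's difference, and leaving out both gave 1 member lower in the trend. On log2(TPM + 1), limma gave 2 lower in MNF_ciHep over MNF_ciEPC, 8 lower in MEF_ciHep over MNF_ciHep, and 4 higher and 8 lower in the ciHep step's difference. On log2(TPM + 0.1) it gave 2 lower in MNF_ciHep over MNF_ciEPC, 1 lower in MEF_ciEPC over MEF, and 4 higher and 7 lower in the ciHep step's difference. With MEF_ciEPC libraries as separate samples, higher and lower members were 1 and 4 in ESC_EPC over ESC and 5 and 8 in MEF_ciHep over pHep, with 10 higher and 0 lower in MNF_ciHep over MNF_ciEPC, 10 higher in MNF_ciHep over MNF, 2 lower in MEF_ciHep over MNF_ciHep and 4 lower in the ciEPC step's difference. Leaving out one replicate at a time gave 7 to 12 higher in MNF_ciHep over MNF, 10 to 13 higher and 0 to 3 lower in MNF_ciHep over MNF_ciEPC, and 3 to 7 higher in MNF_ciHep over pHep. It gave 2 to 3 higher and 5 to 8 lower in ESC_EPC over ESC, and 3 to 7 lower in MEF_ciHep over MNF_ciHep. In the differences between origins it gave 5 to 9 lower for the ciEPC step, and 2 to 4 higher and 3 to 5 lower for the ciHep step. The cause of these shifts was not tested. A fit that leaves one out also has fewer samples, and the part of that in the shifts was not tested either. With 2 or 3 samples a group and 1439670 counts in the shallowest library, the 21 members under the count filter were left untested by choice of that filter.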
